A study of Rattus norvegicus with 12 samples.

Results

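DNA replication and S-phase genes were followed by RNA sequencing in NRK-52E, a cell line from rat kidney that is labelled as tubular epithelium. The set lists 48 genes, of which 47 are among the 24660 genes counted. It was chosen by function, though with earlier results of these data known. It covers the machinery that licenses origins, the replication fork and the enzymes of nucleotide supply. It also holds genes that E2F factors switch on at entry into S phase. E2f1 was not analysed here, and the other 47 members all passed the filter on low counts. Each of 4 groups held 3 libraries. All groups were the wild-type line, and for the control group the labels list no treatment. A second group, here TGF-beta1 cells, was exposed for 24 h to TGF-beta1, a cytokine that drives fibrosis, at 10 µg/ml, the unit being as the labels have it. The other groups received TGF-beta1 and then, for 48 h, extracellular vesicles (EVs) at 500000000 particles/ml, either 2D-EVs from a conventional preparation or 3D-EVs from a more productive one. These groups are written 2D-EV and 3D-EV. The sources used here do not give the cells that made the vesicles, the harvest times of the groups without vesicles, or whether the cytokine stayed on during the vesicle treatment. Between a vesicle group and TGF-beta1 cells, an effect of vesicles, of longer culture and of removing the cytokine therefore cannot be told apart. Comparisons with control cells may also hold a difference in culture time, which was not tested.

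Before S phase, the origin recognition complex, Cdc6 and Cdt1 load the ring of Mcm2 to Mcm7 onto DNA, and at S-phase onset Cdc45 and the GINS complex join it to make the active helicase. Primase and the polymerases alpha, delta and epsilon then copy the strands, held by the sliding clamp Pcna, while ribonucleotide reductase, thymidylate synthase and thymidine kinase supply the nucleotides. Many of these genes are transcribed in late G1 and S phase by E2F factors, which bind a short GC-rich element near the transcription start, and TGF-beta1 is known as a cytostatic factor for many epithelial cells.

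Promoter sequences of the members are shown for their E2F and CCAAT elements. Since the set was chosen in part for genes that E2F factors switch on, its share of E2F elements describes that choice and is no separate finding. RefSeq promoters of the rat build GRCr8, 250 bases before the start and 50 from it, were found for 40 of the 48 members. The E2F element was searched on both strands as TTTCCCGC, TTTCGCGC, TTTGCCGC or TTTGGCGC, and the CCAAT box, the site of the factor NF-Y, as CCAAT. At least 1 E2F match lay in 19 of the 40 members (47.5%), counted over promoter entries in 45.2% of 42 against 2.74% of 21851 entries of protein-coding genes. The CCAAT box lay in 24 of the 40 members, or 61.9% of their entries against 38% of protein-coding entries. The matches describe letters in this window and are not evidence of binding. The last 150 bases before the start are shown for helicase subunits with an E2F match wholly in that stretch (Mcm2, Mcm5, Mcm6, Mcm7), for Tyms and for Gins1. They are also shown for Pold2 and Tk1, which had the smallest adjusted p with TGF-beta1 and hold no E2F match there. Mcm3, whose E2F matches reach or lie after the start, is not shown. Capitals mark matches to either motif lying wholly in the stretch, on either strand. They lie at chr4:122918095-122918244 (minus strand, Mcm2), chr19:13488663-13488812 (plus, Mcm5), chr13:42404353-42404502 (minus, Mcm6), chr12:22163179-22163328 (minus, Mcm7), chr9:120776084-120776233 (minus, Tyms), chr3:160184770-160184919 (plus, Gins1), chr14:84969097-84969246 (minus, Pold2) and chr10:103544778-103544927 (minus, Tk1), all in GRCr8.
Mcm2: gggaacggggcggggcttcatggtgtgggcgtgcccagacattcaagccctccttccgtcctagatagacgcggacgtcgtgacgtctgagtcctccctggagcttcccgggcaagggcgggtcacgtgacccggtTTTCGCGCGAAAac
Mcm5: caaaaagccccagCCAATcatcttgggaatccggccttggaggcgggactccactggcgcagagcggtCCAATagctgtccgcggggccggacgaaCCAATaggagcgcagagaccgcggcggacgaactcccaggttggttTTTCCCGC
Mcm6: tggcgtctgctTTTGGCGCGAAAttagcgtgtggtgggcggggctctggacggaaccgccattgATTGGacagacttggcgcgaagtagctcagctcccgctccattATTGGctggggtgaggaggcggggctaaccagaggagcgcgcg
Mcm7: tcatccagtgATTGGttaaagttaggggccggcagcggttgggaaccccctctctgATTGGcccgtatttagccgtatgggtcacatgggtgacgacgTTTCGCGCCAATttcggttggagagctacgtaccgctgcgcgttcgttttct
Tyms: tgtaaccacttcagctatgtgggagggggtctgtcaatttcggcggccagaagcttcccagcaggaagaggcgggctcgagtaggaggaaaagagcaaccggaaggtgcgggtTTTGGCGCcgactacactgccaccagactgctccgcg
Gins1: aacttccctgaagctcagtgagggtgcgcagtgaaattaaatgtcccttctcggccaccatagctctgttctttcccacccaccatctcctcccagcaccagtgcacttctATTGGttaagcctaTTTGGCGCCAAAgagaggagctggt
Pold2: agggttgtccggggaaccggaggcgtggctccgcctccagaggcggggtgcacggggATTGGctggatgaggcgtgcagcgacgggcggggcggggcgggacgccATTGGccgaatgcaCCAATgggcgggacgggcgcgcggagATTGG
Tk1: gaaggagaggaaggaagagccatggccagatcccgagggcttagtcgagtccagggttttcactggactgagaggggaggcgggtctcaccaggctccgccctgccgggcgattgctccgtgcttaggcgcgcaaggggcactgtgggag
In the stretch of Mcm2, 2 E2F matches overlap into the palindrome TTTCGCGCGAAA, and Gins1 has the like TTTGGCGCCAAA. The promoter of Mcm6 holds TTTGGCGCGAAA, and in Mcm7 an E2F match runs into a CCAAT box. Pold2 shows 4 CCAAT boxes and Tk1 neither motif.

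Libraries held 32888125 to 39754319 counts, and the members 194 to 9455 counts in a library, so none was near the limit of detection. Values are CPM, read counts put on a common library size by TMM (trimmed mean of M-values, a factor that makes most genes equal between libraries), and they are compared between groups for a gene, not between genes, since they are not divided by length. Log2 fold changes carry their standard error (SE) from an edgeR quasi-likelihood fit of all 12 libraries, and a gene was called when its p, adjusted by Benjamini-Hochberg over 14184 genes, was below 0.05. The labels do not say that libraries came from separate cultures, and p-values therefore reflect only library-to-library spread, possibly technical. The cytokine response was present: the TGF-beta1 target genes Col1a1, Fn1, Acta2 and Ccn2, and Tgfb1 itself, rose in TGF-beta1 cells. Of 16 tubular markers 4 (Epcam, Pax2, Umod and Aqp2) were at 0 in every library and Cdh1 averaged under 1 CPM. Their summed level, mostly Krt8, was 1077 to 1096 CPM in control, 1248 to 1330 CPM in TGF-beta1, 1231 to 1262 CPM in 2D-EV and 1215 to 1259.6 CPM in 3D-EV libraries; with TGF-beta1 Krt8 rose (log2 fold change 0.26, adjusted p = 1.19e-05) and Aqp1 fell (-0.40, adjusted p = 0.0245). The immune markers Ptprc, Itgam, C1qa, C1qb and Tyrobp, 5 of 8, were at 0 throughout. Cd68 averaged 3.59 CPM in control, 3.19 CPM in TGF-beta1, 3.50 CPM in 2D-EV and 3.84 CPM in 3D-EV cells, and Cd3e 0.306 CPM in control cells. Of 6 endothelial markers 1 (Emcn) was at 0 in every library, and Tek averaged 2.01 CPM in control cells. The summed level of 6 fibroblast and pericyte markers, mostly Col14a1, was 211 to 224 CPM in control, 142 to 159.7 CPM in TGF-beta1, 157 to 165 CPM in 2D-EV and 159 to 162 CPM in 3D-EV libraries. Col14a1 fell with TGF-beta1 (log2 fold change -0.62, adjusted p = 1.78e-07), while Pdgfrb was higher in every TGF-beta1 library (0.18, adjusted p = 0.142) and rose in 3D-EV against control cells (0.30, adjusted p = 0.0154). The summed level of 6 mesenchymal stromal markers was low, at 7.02 to 9.78 CPM in control, 10.9 to 11.3 CPM in TGF-beta1, 10.2 to 11.8 CPM in 2D-EV and 11.3 to 11.5 CPM in 3D-EV libraries, and Eng rose with TGF-beta1 (0.62, adjusted p = 0.0229). The part of these marker shifts in the results below was not tested.

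The first comparison sets TGF-beta1 cells against control cells. The replication genes were lower as a group in TGF-beta1 cells, by a small amount. Of the 47 members, 16 fell (34%), where 10.2% of all tested genes fell, and 0 rose, where 11.8% of all tested genes rose. The median log2 fold change of the members was -0.15, against 0.00 over all tested genes, and 41 of 47 lay below 0 (50.9% of all tested genes). At an unadjusted p below 0.05 there were 25 members (33% of all tested genes). The falls that passed ranged from 10.1% to 22.7%. In 28 members every TGF-beta1 library lay below every control library, which was so for 18.9% of all tested genes, and in 1 member, Slbp, every library lay above (19.1% of all tested genes). Their summed level stood at 91.5 to 94.8% of the control mean in the 3 TGF-beta1 libraries, and at 98.7 to 102% in the control libraries. In bulk RNA, fewer cells in S phase and less of each transcript per cell cannot be told apart.

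**Figure D1:**
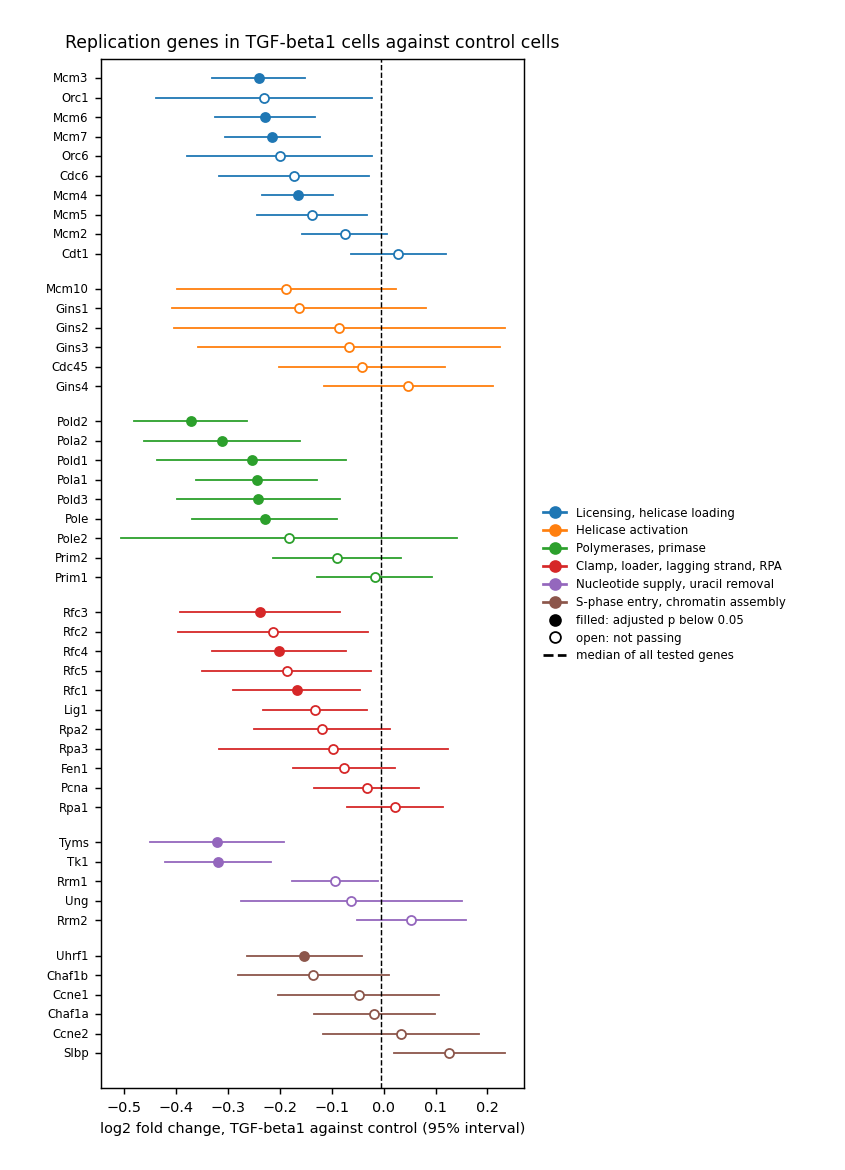
Log2 fold change of 47 replication genes in TGF-beta1 against control cells (x axis) with the 95% interval, one row per gene, grouped and coloured by role. Filled points passed the test (16 genes, all lower), open points did not, and the dashed line is the median of all tested genes.

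The TMM factors were 1.02 to 1.03 in control libraries and 0.983 to 1.00 in the others, and scaling by library totals alone, an alternative chosen after seeing the data, moved the median of all tested genes to -0.06 and that of the members to -0.21 and gave 25 falls and 0 rises. The count dropped to 9 without control replicate 2 and to 9 without TGF-beta1 replicate 3.

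The ring of Mcm2 to Mcm7, the motor of the replicative helicase, was lower throughout. Mcm3 stood at 116, 116 and 124 CPM in control libraries and 101, 96.8 and 103 CPM in TGF-beta1 libraries, a fall of 15.4% (log2 fold change -0.24, SE 0.04, adjusted p = 0.00063). Mcm6 stood at 89.8, 98.1 and 94.9 CPM in control libraries and 78.1, 81.3 and 81.8 CPM in TGF-beta1 libraries (log2 fold change -0.23, SE 0.05, adjusted p = 0.00181). Neither gene's groups overlapped. Mcm7 stood at 100.1, 107 and 107 CPM in control libraries and 91.3, 87.1 and 92.3 CPM in TGF-beta1 libraries (log2 fold change -0.21, adjusted p = 0.0021). Mcm4, whose libraries lay close together, stood at 137, 140.4 and 139 CPM in control libraries and 123, 126 and 122 CPM in TGF-beta1 libraries (log2 fold change -0.17, adjusted p = 0.00158). These 4 subunits fell by 10.8% to 15.4%. Mcm5, at 71.9, 77.4 and 72.7 CPM in control libraries and 66.9, 67.0 and 67.8 CPM in TGF-beta1 libraries, missed the threshold (log2 fold change -0.14, adjusted p = 0.0583). Mcm2, at 140.1, 143 and 139.6 CPM in control libraries and 128, 137 and 136 CPM in TGF-beta1 libraries, missed it as well (log2 fold change -0.07, adjusted p = 0.194). In both genes the groups still did not overlap, so the 6 subunits were all lower in every TGF-beta1 library than in any control library. Of all tested genes, 18.9% lay lower in this way. Mcm5 passed when only the compared groups entered the fit (adjusted p = 0.0312).

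The loaders of the ring did not pass as single genes. Orc1, the largest subunit of the origin recognition complex, stood at 15.5, 17.2 and 17.7 CPM in control libraries and 13.5, 14.4 and 15.1 CPM in TGF-beta1 libraries (log2 fold change -0.23, adjusted p = 0.11). Orc6, its smallest subunit, had a log2 fold change of -0.20 (adjusted p = 0.104), a value that passed without TGF-beta1 replicate 1 (adjusted p = 0.0482). Cdc6, the ATPase that loads the ring together with Cdt1, stood at 21.9, 22.3 and 23.5 CPM in control libraries and 19.3, 19.8 and 21.0 CPM in TGF-beta1 libraries (log2 fold change -0.17, adjusted p = 0.0866). These 3 genes had groups that did not overlap, lower with TGF-beta1, as did 18.9% of all tested genes. Cdt1 was the exception among the licensing genes, at 65.0, 68.8 and 63.2 CPM in control libraries and 66.7, 65.5 and 68.6 CPM in TGF-beta1 libraries, with overlapping groups (log2 fold change 0.03, 95% interval -0.06 to 0.12). Of the 10 licensing genes 4 fell (10.2% of all tested genes) and 9 lay below 0 (50.9% of all tested genes). Their summed level was 88.8 to 90.9% of the control mean in TGF-beta1 libraries.

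The factors that turn the loaded ring into an active helicase showed no call. Of 6 genes, 0 fell, where 10.2% of all tested genes fell. Groups that did not overlap were found in 0 of them (18.9% of all tested genes lower, 19.1% higher). Whether this role differs from all tested genes was not tested. Gins1, a subunit of the GINS complex, stood at 13.4, 12.6 and 12.6 CPM in control libraries and 12.7, 10.0 and 11.8 CPM in TGF-beta1 libraries (log2 fold change -0.16, adjusted p = 0.359). Gins2, another subunit, stood at 10.7, 11.4 and 14.3 CPM in control libraries and 10.6, 9.10 and 14.6 CPM in TGF-beta1 libraries (95% interval of the log2 fold change -0.40 to 0.23). The groups of both genes overlapped. Cdc45, the helicase cofactor, had a log2 fold change of -0.04, Mcm10, which helps to activate the helicase, of -0.19, Gins3 of -0.07 and Gins4 of 0.05. The 95% intervals of Gins1, Gins2, Gins3 (-0.36 to 0.22) and Mcm10 (-0.40 to 0.02) all include the log2 fold change of Mcm3, so a change of that size was not excluded in them.

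Polymerases and primase gave the largest share of falls of the roles in this comparison, 6 of 9 genes, where 10.2% of all tested genes fell. Against control their share was 33.3% with 2D-EVs and 44.4% with 3D-EVs (8.13% and 10.8% of all tested genes). Licensing genes there had 50% and 60%. Whether the roles differ was not tested. Pold2, the accessory subunit of polymerase delta, stood at 51.7, 48.2 and 50.7 CPM in control libraries and 40.2, 38.3 and 37.9 CPM in TGF-beta1 libraries, a fall of 22.7% and the smallest adjusted p of the members (log2 fold change -0.37, SE 0.05, adjusted p = 9.03e-05). The catalytic subunit Pold1 fell by 16.2% (adjusted p = 0.0454) and the subunit Pold3 by 15.4% (adjusted p = 0.0287). Pola1, the catalytic subunit of polymerase alpha, stood at 34.5, 36.0 and 34.9 CPM in control libraries and 29.1, 28.8 and 31.1 CPM in TGF-beta1 libraries (log2 fold change -0.24, SE 0.05, adjusted p = 0.00446), and Pola2, its regulatory subunit, at 23.6, 25.8 and 22.7 CPM in control libraries and 20.1, 18.8 and 19.3 CPM in TGF-beta1 libraries (log2 fold change -0.31, SE 0.07, adjusted p = 0.0047). Pole, the catalytic subunit of the leading-strand polymerase epsilon, fell by 14.7% (adjusted p = 0.02). In all 6 genes the groups did not overlap. Over the whole role 7 of 9 genes lay lower in this way, where 18.9% of all tested genes did. The primase subunits bound to polymerase alpha did not pass: Prim1 stood at 220.3, 223 and 215 CPM in control libraries and 233, 207 and 210.2 CPM in TGF-beta1 libraries (log2 fold change -0.02, 95% interval -0.13 to 0.09) and Prim2 at 27.3, 27.1 and 28.5 CPM in control libraries and 26.4, 25.4 and 26.2 CPM in TGF-beta1 libraries (log2 fold change -0.09, adjusted p = 0.309). Whether primase and polymerase subunits differ was not tested. Pole2, a subunit of polymerase epsilon and the member with the lowest counts, had a wide interval (-0.51 to 0.14). The calls of Pold1, Pold3 and Pole were lost without single libraries. Pold1 was lost without control replicate 2 (adjusted p = 0.154) or 3 (0.127), without TGF-beta1 replicate 1 (0.0923) or 3 (0.159), and with the replicate number as a block (0.0518). Pold3 was lost without TGF-beta1 replicate 3 (adjusted p = 0.128) or control replicate 2 (0.0716) or 3 (0.0884), and Pole without control replicate 2 (0.076) or TGF-beta1 replicate 3 (0.0619).

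At the clamp and on the lagging strand 3 of 11 genes fell, where 10.2% of all tested genes fell. All 3 are subunits of replication factor C, the complex that opens the clamp and sets it on DNA. Rfc3 stood at 20.1, 20.3 and 18.0 CPM in control libraries and 16.4, 17.6 and 15.4 CPM in TGF-beta1 libraries (log2 fold change -0.24, SE 0.07, adjusted p = 0.0278), Rfc4 at 54.3, 52.9 and 50.3 CPM in control libraries and 49.5, 45.3 and 42.3 CPM in TGF-beta1 libraries (log2 fold change -0.20, SE 0.06, adjusted p = 0.0265) and the large subunit Rfc1 at 41.8, 42.0 and 45.0 CPM in control libraries and 39.6, 37.7 and 37.3 CPM in TGF-beta1 libraries (log2 fold change -0.17, SE 0.06, adjusted p = 0.0486). Rfc2 (log2 fold change -0.21, adjusted p = 0.0934) and Rfc5 (log2 fold change -0.19, adjusted p = 0.0991) missed the threshold. In each of the 5 subunits every TGF-beta1 library lay below every control library (18.9% of all tested genes). The clamp itself, Pcna, stood at 173, 172 and 159 CPM in control libraries and 174, 157 and 162 CPM in TGF-beta1 libraries with overlapping groups (log2 fold change -0.03, 95% interval -0.13 to 0.07). Lig1, which seals Okazaki fragments, stood at 63.3, 66.3 and 64.2 CPM in control libraries and 58.5, 59.4 and 58.9 CPM in TGF-beta1 libraries (log2 fold change -0.13, adjusted p = 0.0552) and passed with only the compared groups in the fit (adjusted p = 0.0287). Fen1, the flap nuclease of the lagging strand, had a log2 fold change of -0.08 (adjusted p = 0.27). Of the single-strand binding complex, Rpa1 (0.02), Rpa2 (-0.12) and Rpa3 (-0.10, all log2 fold changes) had overlapping groups and did not pass, though Rpa2 did without TGF-beta1 replicate 1 (adjusted p = 0.0474). The Rfc calls were near the threshold. Rfc1 was lost whichever of the 6 libraries was left out (adjusted p = 0.0546 to 0.173), with RLE size factors (0.051), without the low-count filter (0.0599) and with the replicate block (0.0544). Rfc3 was lost without control replicate 1 (0.0994) or 2 (0.105), TGF-beta1 replicate 1 (0.0711) or 3 (0.109), or with only the compared groups in the fit (0.0561), and Rfc4 without TGF-beta1 replicate 2 (0.0816) or 3 (0.125), or control replicate 1 (0.103) or 2 (0.0686).

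Within nucleotide supply the thymidine enzymes fell and ribonucleotide reductase did not pass. Whether these enzymes differ from each other was not tested. Of the 5 genes in this role 2 fell, where 10.2% of all tested genes fell. In 3 of them every TGF-beta1 library lay below every control library (18.9% of all tested genes). Tyms, thymidylate synthase, which makes thymidylate anew, stood at 99.3, 103 and 94.1 CPM in control libraries and 77.5, 79.1 and 80.7 CPM in TGF-beta1 libraries, a fall of 20.0% (log2 fold change -0.32, SE 0.06, adjusted p = 0.0013). Tk1, the S-phase thymidine kinase of the salvage route, stood at 116, 119.8 and 112 CPM in control libraries and 98.0, 87.5 and 93.4 CPM in TGF-beta1 libraries, a fall of 19.8% (log2 fold change -0.32, SE 0.05, adjusted p = 0.000191). All TGF-beta1 libraries lay below all control libraries in both genes. Rrm1, the large subunit of ribonucleotide reductase, stood at 199, 213 and 206 CPM in control libraries and 194, 192 and 192 CPM in TGF-beta1 libraries (log2 fold change -0.09, adjusted p = 0.101). Its groups did not overlap either. Rrm2, the subunit made in S phase, stood at 219, 239.9 and 228 CPM in control libraries and 245, 239 and 228 CPM in TGF-beta1 libraries with overlapping groups (log2 fold change 0.05, 95% interval -0.05 to 0.16). Ung, which removes uracil from DNA, had a log2 fold change of -0.06 (95% interval -0.27 to 0.15).

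**Figure D2:**
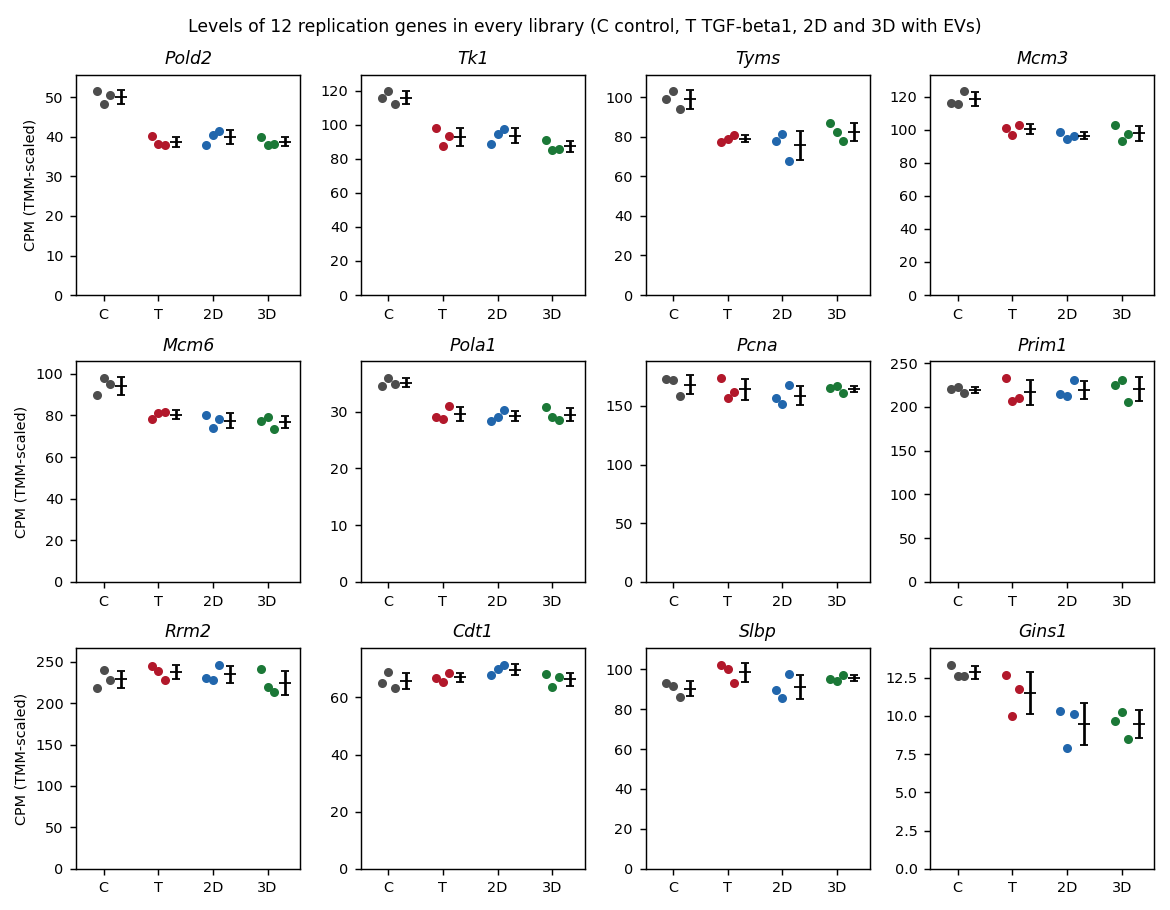
CPM of 12 members in every library (points), with mean ± SD beside each group (bars, n = 3); C is control, T TGF-beta1, 2D and 3D the vesicle groups, and each panel starts at 0. Pold2, Tk1, Tyms, Mcm3, Mcm6 and Pola1 are lower in all groups given TGF-beta1, while Pcna, Prim1, Rrm2 and Cdt1 overlap across groups.

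Genes of S-phase entry and chromatin assembly mostly did not pass. Uhrf1, which guides the copying of DNA methylation, stood at 53.2, 56.3 and 52.1 CPM in control libraries and 51.2, 46.0 and 48.1 CPM in TGF-beta1 libraries (log2 fold change -0.15, SE 0.05, adjusted p = 0.047). It was the 1 fall among 6 genes, where 10.2% of all tested genes fell. The cyclins that drive entry into S phase overlapped between groups: Ccne1 had a log2 fold change of -0.05 (95% interval -0.20 to 0.11) and Ccne2 of 0.03 (-0.12 to 0.18). Slbp, which binds the stem-loop of histone mRNAs, stood at 92.9, 91.6 and 86.0 CPM in control libraries and 102, 99.9 and 93.1 CPM in TGF-beta1 libraries, higher in every TGF-beta1 library (log2 fold change 0.13, adjusted p = 0.0887). Slbp passed as a rise without TGF-beta1 replicate 3 (adjusted p = 0.0461). Chaf1a and Chaf1b, subunits of the factor that places histones on new DNA, had log2 fold changes of -0.02 and -0.14 (adjusted p = 0.861 and 0.185). The summed level of the 6 genes was 97.2 to 103% of the control mean in TGF-beta1 libraries. The call of Uhrf1 was lost without TGF-beta1 replicate 2 (adjusted p = 0.193) or 3 (0.117), without control replicate 1 (0.0859) or 2 (0.172), with the replicate block (0.0753), without the low-count filter (0.0578) and with only the compared groups in the fit (0.0542).

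Calls that held under every alternative and every left-out library were those of 9 members: Mcm3, Mcm4, Mcm6, Mcm7, Pola1, Pola2, Pold2, Tyms and Tk1. An E2F match lay in the promoter window of 9 of 15 members that fell and had an entry, and of 10 of 25 that did not pass. A CCAAT box lay in 10 of the 15 and 14 of the 25. These are counts without a test.

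The next question is whether vesicles moved these genes away from the levels of TGF-beta1 cells. In 2D-EV against TGF-beta1 cells edgeR called 0 of 47 members higher and 0 lower, where 0.0282% of all tested genes passed. DESeq2 called 0 members as well. At an unadjusted p below 0.05 there were 6 members (7.1% of all tested genes): Gins1, Gins2, Pola2, Rfc2, Slbp and Chaf1b. The median log2 fold change of the members was 0.01, against 0.00 over all tested genes, with 23 of 47 below 0 (49.4% of all tested genes). Pola2 stood at 22.5, 21.8 and 20.9 CPM in 2D-EV libraries, above all TGF-beta1 libraries (log2 fold change 0.17, SE 0.07, adjusted p = 0.626). Chaf1b stood at 23.3, 26.2 and 22.8 CPM against 21.3, 20.5 and 20.6 CPM in TGF-beta1 cells (log2 fold change 0.21, SE 0.07, adjusted p = 0.426), the smallest adjusted p among the members. Only these 2 members lay higher in every 2D-EV library than in any TGF-beta1 library (6.13% of all tested genes did), and only Mcm5 and Rrm1 lay lower (6.23%). Gins2 had the largest difference, at 15.1, 14.6 and 15.2 against 10.6, 9.10 and 14.6 CPM, with overlapping groups (log2 fold change 0.39, adjusted p = 0.568).

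In 3D-EV against TGF-beta1 cells edgeR again called 0 members in either direction, and it called 0 of 14184 genes (0% of all tested genes). DESeq2 called 13 genes and 0 members. The 1 member with an unadjusted p below 0.05 was Gins1 (7.24% of all tested genes), at 9.68, 10.3 and 8.48 against 12.7, 10.0 and 11.8 CPM (log2 fold change -0.28, SE 0.12, adjusted p = 0.643). The median log2 fold change of the members was -0.01, against 0.00 over all tested genes, with 25 of 47 below 0 (50.1% of all tested genes). Lig1 was lower in every 3D-EV library than in any TGF-beta1 library (6.83% of all tested genes were), and 0 members were higher in this way (6.8%). The 95% interval lay within 0.3 of no change on the log2 scale, or 1.23-fold, for 42 of 47 members with 3D-EVs and 38 of 47 with 2D-EVs. Its half-width ranged from 0.07 to 0.33 with either preparation, with a median of 0.13.

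The direct comparison of the vesicle preparations, 3D-EV against 2D-EV cells, called 0 members (0.00705% of all tested genes passed), and DESeq2 called 0 too. At an unadjusted p below 0.05 there was 1 member, Chaf1b (6.9% of all tested genes), at 19.8, 22.1 and 19.3 CPM with 3D-EVs and 23.3, 26.2 and 22.8 CPM with 2D-EVs (log2 fold change -0.24, SE 0.07, adjusted p = 0.598). The groups did not overlap in 3 members, Orc6 and Chaf1b lower and Fen1 higher with 3D-EVs, where 5.68% and 5.67% of all tested genes were lower or higher in this way. Over the 47 members log2 differences ran from -0.24 (Chaf1b) to 0.13 (Tyms), and 41 intervals lay within 0.3 of no change. A p above the threshold does not show that the preparations act alike on these genes.

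**Figure D3:**
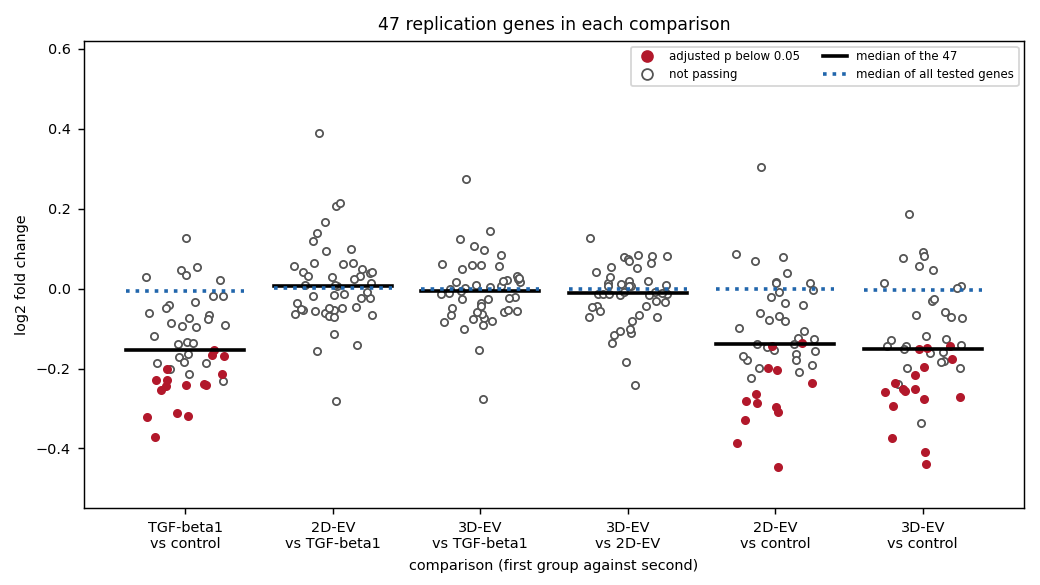
Log2 fold change of the 47 members in 6 comparisons, one point per gene, filled where the gene passed. The black line is their median and the dotted line the median of all tested genes; the members' median lies below it in the 3 comparisons with control cells and close to it in the 3 others, where no gene of the set passed.

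Against control cells, replication genes were lower in the vesicle groups too. These comparisons use the same 3 control libraries, so they are not independent of each other. In 2D-EV cells 13 members fell (27.7%, against 8.13% of all tested genes) and 0 rose (10.5% of all tested genes), with a median of -0.14 and 39 of 47 below 0 (50.4% of all tested genes). At an unadjusted p below 0.05 there were 22 (30% of all tested genes). In 3D-EV cells 17 fell (36.2%, against 10.8% of all tested genes) and 0 rose (12.2% of all tested genes), with a median of -0.15 and 38 of 47 below 0 (51% of all tested genes). The summed level of the members was 90.6 to 95.2% of the control mean in 2D-EV libraries and 89.0 to 94.0% in 3D-EV libraries. In all 3 comparisons with control the same 9 members fell: Mcm3, Mcm4, Mcm6, Mcm7, Pola1, Pold2, Pole, Tyms and Tk1. Tk1, for instance, measured 88.9, 94.3 and 97.5 CPM with 2D-EVs (log2 fold change -0.31, adjusted p = 0.000334) and 90.9, 85.0 and 85.8 CPM with 3D-EVs (log2 fold change -0.41, adjusted p = 2.31e-05). Mcm3 stood at 98.4, 94.7 and 96.5 CPM (log2 fold change -0.30, adjusted p = 0.000161) and 103, 93.2 and 97.6 CPM (log2 fold change -0.28, adjusted p = 0.000214), and Pold2 at 37.9, 40.4 and 41.4 CPM (log2 fold change -0.33, adjusted p = 0.000341) and 40.0, 38.0 and 38.2 CPM (log2 fold change -0.37, adjusted p = 9.44e-05). None of these vesicle libraries reached the lowest control library of its gene. Of all tested genes, 16.1% lay lower than control in this way with 2D-EVs and 18.6% with 3D-EVs.

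Several members passed against control in a vesicle group and not in TGF-beta1 cells. Gins1 stood at 13.4, 12.6 and 12.6 CPM in control cells, 12.7, 10.0 and 11.8 CPM in TGF-beta1 cells, 10.4, 7.87 and 10.1 CPM in 2D-EV cells and 9.68, 10.3 and 8.48 CPM in 3D-EV cells. It fell in 2D-EV cells (log2 fold change -0.45, SE 0.12, adjusted p = 0.0141) and in 3D-EV cells (log2 fold change -0.44, SE 0.12, adjusted p = 0.0129), the largest falls among the members in those comparisons, and all 6 vesicle libraries lay below all control libraries. Mcm5 (-0.20 and -0.21), Lig1 (-0.20 and -0.20) and Rrm1 (-0.14 and -0.15, log2 fold changes with 2D-EVs and 3D-EVs) fell in both vesicle groups. Mcm2 (-0.15) and Rfc5 (-0.24) fell in 3D-EV cells. In the comparison with TGF-beta1 cells none of these genes passed. The call of Gins1 was lost without control replicate 1 (adjusted p = 0.0515) or 2D-EV replicate 2 (0.068), and with 3D-EVs without 3D-EV replicate 3 (0.0598). With 2D-EVs Mcm5 was lost without control replicate 2 (0.0527) and Rrm1 without control replicate 2 (0.0836) or 2D-EV replicate 1 (0.0772). With 3D-EVs Mcm2 was lost without 3D-EV replicate 2 (0.0573), Rrm1 without control replicate 2 (0.0547) or 3D-EV replicate 2 (0.0605), and Rfc5 without control replicate 1 (0.114) or 2 (0.111), 3D-EV replicate 1 (0.0816) or 3 (0.147), or with the replicate block (0.0564).

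Further members passed against control when a library was left out. With 2D-EVs these were Mcm10 without 2D-EV replicate 2 (adjusted p = 0.0461) and, without 2D-EV replicate 3, Cdc45 (0.0423), Gins3 (0.0262) and Rfc5 (0.0469). With 3D-EVs they were Pold1 without control replicate 1 (0.0426) or 3D-EV replicate 1 (0.014), Rfc1 without 3D-EV replicate 1 (0.0284) and Chaf1b without 3D-EV replicate 2 (0.0476), and Pold1 also passed with DESeq2 (0.0456). All of them were falls.

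Among the 16 members that fell with TGF-beta1, those that did not pass against control in a vesicle group were Pold1, Pold3, Rfc1, Rfc3 and Rfc4 in both groups, and Pola2 and Uhrf1 in 2D-EV cells. Rfc4 stood at 54.3, 52.9 and 50.3 CPM in control cells, 49.5, 45.3 and 42.3 CPM in TGF-beta1 cells, 45.2, 48.3 and 49.7 CPM in 2D-EV cells and 47.1, 49.3 and 45.3 CPM in 3D-EV cells, with a log2 difference from control of -0.20, -0.14 and -0.15 in that order of groups. Pold3 gave -0.24, -0.18 and -0.16. Pola2 gave -0.31, -0.15 and -0.25, with adjusted p = 0.179 in 2D-EV and 0.0171 in 3D-EV cells. Its 3D-EV call was lost without control replicate 2 (adjusted p = 0.0879) or 3D-EV replicate 2 (0.0892). With 3D-EVs the call of Uhrf1 was lost without control replicate 2 (0.0953) or 3D-EV replicate 3 (0.0859), and that of Pole without 3D-EV replicate 2 (0.0526). Over all 6 comparisons 25 of the 47 members passed in none.

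**Figure D4:**
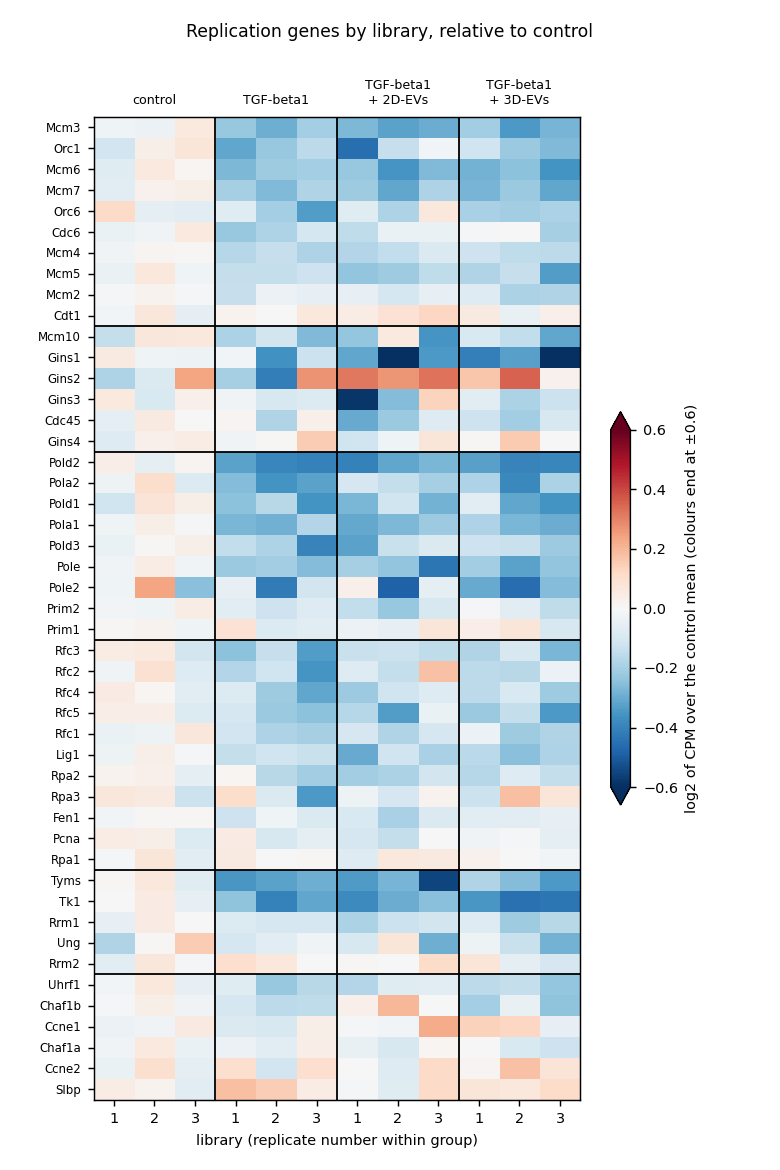
Level of each of 47 members (rows, grouped by role) in each of 12 libraries (columns), as the log2 of CPM over the control mean; blue is lower and red higher. Mcm3, Pold2, Tyms and Tk1 are blue in all 9 libraries given TGF-beta1, and Gins2 lies above the control mean in the 6 vesicle libraries.

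Other genes of the pathway, from lists chosen by function with earlier results of these data known, fell in part as well. Beside the counts below stand the shares of all tested genes with TGF-beta1, 10.2% fallen and 11.8% risen. Of 27 further initiation and fork genes 7 fell (25.9%) and 0 rose (0%), with a median of -0.11. They included Mtbp (34.1 ± 0.815 against 44.4 ± 0.759 CPM, log2 fold change -0.38, adjusted p = 0.000439) and Ticrr (13.0 ± 0.357 against 16.6 ± 0.580 CPM, log2 fold change -0.35, adjusted p = 0.00249), partners in firing origins, and Atad5, which unloads the clamp (17.1 ± 0.151 against 22.2 ± 0.380 CPM, log2 fold change -0.37, adjusted p = 0.000604). Of 14 further S-phase chromatin and cyclin genes 6 fell (42.9%) and 0 rose (0%), with a median of -0.16. Ccna2, cyclin A2, stood at 138, 139.9 and 132 CPM in control libraries and 121, 113 and 108 CPM in TGF-beta1 libraries (log2 fold change -0.26, adjusted p = 0.00081), and Nasp, a histone chaperone, at 135, 128 and 129 CPM in control libraries and 112, 109 and 111 CPM in TGF-beta1 libraries (log2 fold change -0.24, adjusted p = 0.000924). Fbxo5, an inhibitor of the anaphase-promoting complex, had a log2 fold change of -0.39 (adjusted p = 0.00084). In these lists too, edgeR called 0 genes in 2D-EV or in 3D-EV against TGF-beta1 cells, where 0.0282% and 0% of all tested genes passed.

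Nucleotide synthesis outside the members went both ways. Of 22 genes 5 rose (22.7%, against 11.8% of all tested genes) and 6 fell (27.3%, against 10.2%) with TGF-beta1, with a median of -0.09. Shmt1, the cytosolic serine hydroxymethyltransferase that serves thymidylate synthesis, stood at 88.6, 86.9 and 84.5 CPM in control libraries and 67.1, 64.3 and 67.4 CPM in TGF-beta1 libraries (log2 fold change -0.39, adjusted p = 4.23e-05). Paics, an enzyme of purine synthesis, stood at 174, 178 and 176 CPM in control libraries and 153, 147 and 158 CPM in TGF-beta1 libraries (log2 fold change -0.20, adjusted p = 0.00061). Impdh1, which makes the guanine nucleotide precursor, rose, at 53.9, 53.5 and 59.6 CPM in control libraries and 73.5, 71.6 and 76.8 CPM in TGF-beta1 libraries (log2 fold change 0.41, adjusted p = 0.000135).

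Among 20 E2F, pocket protein and MYB regulators 1 rose (5%, against 11.8% of all tested genes) and 5 fell (25%, against 10.2%) with TGF-beta1, with a median of -0.11. The oncogene Myb stood at 9.81, 8.78 and 11.1 CPM in control cells, 4.31, 3.93 and 2.69 CPM in TGF-beta1 cells, 2.77, 4.30 and 5.16 CPM in 2D-EV cells and 3.77, 4.24 and 4.05 CPM in 3D-EV cells, a fall of 63.1% with TGF-beta1 (log2 fold change -1.44, SE 0.20, adjusted p = 9.94e-05), a larger fall than that of any member. E2f5, an E2F factor that works with pocket proteins, stood at 44.1, 40.7 and 47.5 CPM in control libraries and 35.7, 36.6 and 35.7 CPM in TGF-beta1 libraries (log2 fold change -0.29, adjusted p = 0.00167), and the pocket protein gene Rbl2 at 34.8, 32.5 and 32.9 CPM in control libraries and 27.0, 28.2 and 29.2 CPM in TGF-beta1 libraries (log2 fold change -0.25, adjusted p = 0.0107). The 1 rise was that of Rb1, the retinoblastoma gene (45.7 ± 1.42 against 38.6 ± 2.80 CPM, log2 fold change 0.24, adjusted p = 0.0119), named after its value was seen.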

How the data were processed

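Total RNA of NRK-52E cells was sequenced in 12 libraries. The authors deposited un-normalized counts of reads per gene as whole numbers. The submitters' processing notes name fastp, HISAT2, StringTie, DESeq2 and the build mRatBN7.2; their versions, order, counting settings and strand handling were not given by the sources used here. The 12 tables per library equalled the joint table. With edgeR 4.0.16 in R 4.3.3, filterByExpr (minimum count 10) kept 14184 of 24660 genes, and all libraries entered 1 quasi-likelihood fit of group means with TMM factors. P-values were adjusted over all genes tested. SEs are the log2 fold change over the root of F. DESeq2 1.42.0 was an alternative. The fit was tested on simulated data. Replicates differed by 6.66 to 10.6 times counting variance.

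The members, lists, tests and alternatives were chosen with earlier results of these data known. All members in the table are named; of a list of other genes, up to 3 with the smallest p are named and the rest counted. Promoters came from a RefSeq table of build GRCr8, used for sequence only. By RefSeq coordinates, 7 members overlap another protein-coding gene (Gins2, Pole2, Lig1, Fen1, Rrm2, Ccne2 and Uhrf1), and without known strand handling reads of the overlap cannot be assigned.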

Additional observations from a re-analysis of the deposited data

How the results depend on the processing

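The count of members that fell with TGF-beta1, 16, was 25 with library totals in place of TMM (chosen after seeing the data), and 15 with RLE, 14 without the filter, 16 with DESeq2 and 16 with only the compared groups. With the replicate number as a block it was 13, and the block left 13 falls in 2D-EV and 16 in 3D-EV against control; libraries of equal number deviated from their group means with correlations of -0.11 to 0.11, 4 of 12 being closest to a library of equal number, and were not treated as pairs. Leaving out 1 library gave 9 to 15 falls and 0 to 1 rises with TGF-beta1, 11 to 16 falls in 2D-EV against control and 13 to 18 in 3D-EV against control. The falls against control kept within 1.5 times under the other alternatives in both vesicle groups. In the comparisons among groups given TGF-beta1, each alternative gave 0 members that passed. Over all member values and alternatives, 54 calls were lost, 36 were gained and 0 changed direction. Each group has 3 libraries, which limits the calls for members with low counts, the GINS genes and Pole2 above all.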

Other observations

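Mitotic genes were lower with TGF-beta1 as well. Of 29 mitosis and G2/M genes 19 fell and 0 rose (10.2% of all tested genes fell and 11.8% rose), with a median log2 fold change of -0.20. Top2a, the topoisomerase that untangles chromosomes, stood at 237, 233 and 242 CPM in control libraries and 192, 185 and 189 CPM in TGF-beta1 libraries (log2 fold change -0.33, adjusted p = 6.21e-06), and Mki67, a coat protein of mitotic chromosomes, at 147, 159 and 151 CPM in control libraries and 124, 121 and 128 CPM in TGF-beta1 libraries (log2 fold change -0.29, adjusted p = 4.05e-05). Cdc20, an activator of the anaphase-promoting complex, stood at 136, 135 and 124 CPM in control libraries and 104, 102 and 98.1 CPM in TGF-beta1 libraries (log2 fold change -0.37, adjusted p = 7.07e-05). In the vesicle groups 20 (2D-EV) and 19 (3D-EV) of the 29 fell against control, where 8.13% and 10.8% of all tested genes fell. Of 20 S-phase repair and checkpoint genes 9 fell and 0 rose, with a median of -0.20. Wee1, the kinase that holds back entry into mitosis, stood at 53.9, 56.1 and 54.3 CPM in control libraries and 42.3, 38.5 and 40.0 CPM in TGF-beta1 libraries (log2 fold change -0.44, adjusted p = 3.01e-05), and Fanci of the crosslink repair pathway at 43.2, 39.4 and 43.1 CPM in control libraries and 34.2, 31.9 and 32.9 CPM in TGF-beta1 libraries (log2 fold change -0.34, adjusted p = 0.000768).

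The list of CDK inhibitors and D cyclins also holds the kinases Cdk4 and Cdk6, and 9 of its 12 genes were tested. Of these 9 genes 3 fell and 0 rose with TGF-beta1 (10.2% of all tested genes fell and 11.8% rose), and the median was -0.01. In 3 genes every TGF-beta1 library lay below every control library (18.9% of all tested genes), and in 1 above (19.1%). Cdkn2c, an inhibitor of Cdk4 and Cdk6, stood at 54.9, 48.9 and 49.7 CPM in control libraries and 36.9, 39.6 and 37.3 CPM in TGF-beta1 libraries (log2 fold change -0.43, adjusted p = 7.41e-05) and Cdkn1b, an inhibitor of cyclin-Cdk2, at 129, 123 and 124 CPM in control libraries and 108, 112 and 105 CPM in TGF-beta1 libraries (log2 fold change -0.21, adjusted p = 0.00129). Ccnd1, cyclin D1, stood at 297, 316 and 302 CPM in control libraries and 261, 271 and 275 CPM in TGF-beta1 libraries (log2 fold change -0.18, adjusted p = 0.00603).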
